A study of Mus musculus with 5 samples.

Results

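The genes described here are 38 mouse genes that mark macrophages or carry out antigen presentation, followed across all 5 microarrays of the series. They were selected on their levels on these 5 arrays and listed by name, and each was found by matching a probe's RefSeq accession to a gene symbol. A match was found for 37 of the 38 among 20016 named genes, and no probe was matched to Clec7a. The brightest probe stood for its gene. At least 1 array showed 30 of the 37 well above background, and 18 were so on all 5 arrays. Since these levels chose the list, the counts and differences given for its members describe them and are not evidence about the doses or times.

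The arrays measured total RNA of cell lines made from mouse soft tissue sarcomas, in which doxycycline induces EWS/ATF1, the fusion that drives clear cell sarcoma. All groups carry the doxycycline-inducible EWS/ATF1 alleles, have a mixed C57/BL6, 129 and ICR background and are labelled as tumor cells. At 3 h after exposure there were 3 groups, a control, a low and a high dose of doxycycline, and at 48 h a control and a high dose. Each of the 5 groups has 1 array and so no replicate. The sources used here do not give the concentrations, any doxycycline received by the controls, or the line behind each array, and arrays may therefore differ by line as well.

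Macrophages are blood-derived or resident tissue cells that engulf debris and microbes and are common in sarcomas. Their development depends on the transcription factor PU.1, the product of Spi1, and on the receptor for the growth factor CSF1. They secrete complement C1q and lysozyme, digest what they engulf with lysosomal proteases such as cathepsin S, and sense antibodies through Fc receptors that signal through the gamma chain, the product of Fcer1g. The related adaptor DAP12, the product of Tyrobp, serves TREM2 and other receptors. Peptides are then shown to helper T cells on class II molecules, whose assembly needs the invariant chain, the product of Cd74. Other cell types can also make class II molecules when interferon gamma induces the coactivator CIITA.

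A level below is the log2 intensity of a gene's probe minus the log2 of its array's 75th percentile, and levels are compared between arrays, never between genes. Between 30884 and 33427 of 55681 probes were well above background on an array, and the 75th percentile ran from 420 to 725 intensity units. A gene was called where 2 arrays differed at least 2-fold, which is 1 on the log2 scale. Where it was well above background on 1 of the arrays compared only, the fold is a bound, written "at least". The bound sets the brighter array against the higher of the dim array's lowest level above background and the probe's own level there. The scanner error given with a difference is the extraction software's own estimate for the pair of arrays, and it holds nothing of the variation between cultures.

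The listed genes did not all rise and fall together. A core of them, Ctss, Cd5l and Tyrobp, had a similar shape across the arrays taken in the order of 3 h control, low and high dose, then 48 h control and high dose. On the first pair Ctss and Cd5l had similar levels, while Tyrobp differed by -0.78 at the low dose (scanner error 0.227), which was not called. All 3 were lower on the 3 h high-dose and 48 h control arrays, here called the middle arrays, and highest on the last. The first pair and the last array are called the outer arrays. Tyrobp, C1qc and Lyz2 were above background on the 3 outer arrays and on neither middle array, a pattern of 20 of the 20016 named genes (0.0999%). The 3 highest levels lay on the outer arrays for 19 of the 37 genes, against 9.55% of all named genes, with levels below background counted as read. Of the 21 genes above background on all 3 outer arrays it held for 13, against 10.4% of such named genes. Among the 13, Tyrobp, C1qc and Lyz2 passed this filter through the outer arrays alone, so the filter itself set their place. It also let Tyrobp into the next count. The gap is the lowest outer level minus the higher middle level, and it is a lower limit where a middle level below background had to be bounded. It was at least 1 on the log2 scale in 3 of these 21 genes, against 0.148% of such named genes. These were Ctss, with a gap of 3.79, Cd5l, with 2.35, and Tyrobp, with at least 1.93. Some of the 13 genes met the order by little. The gap was 0.01 for Csf2ra, 0.04 for H2-Eb1 and 0.19 for both H2-Aa and Fcer1g. These gaps are smaller than the scanner error of a pair of arrays, 0.204 or more in these genes.

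A wider set shared only the high level at the late high dose. The 48 h high-dose array held the highest level of 27 of the 30 genes above background somewhere, against 39.6% of such named genes. Among the 27, C1qa, Fcgr3, Cd36, Aif1 and Lcp1 were above background on that array alone, so the filter itself set their place. Csf3r also counts among the 27, at 6.15 there against 6.14 on the 48 h control array. The 48 h high-dose array had 29 of the 37 genes above background. The 3 h control array had 21, the 3 h low-dose 24, the 3 h high-dose 18 and the 48 h control 19. Itgam, Csf2ra and Csf3r varied by at most 0.55 over all 5 arrays. In RNA from bulk cultures, fewer cells of a type and less RNA per cell cannot be told apart.

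**Figure D1:**
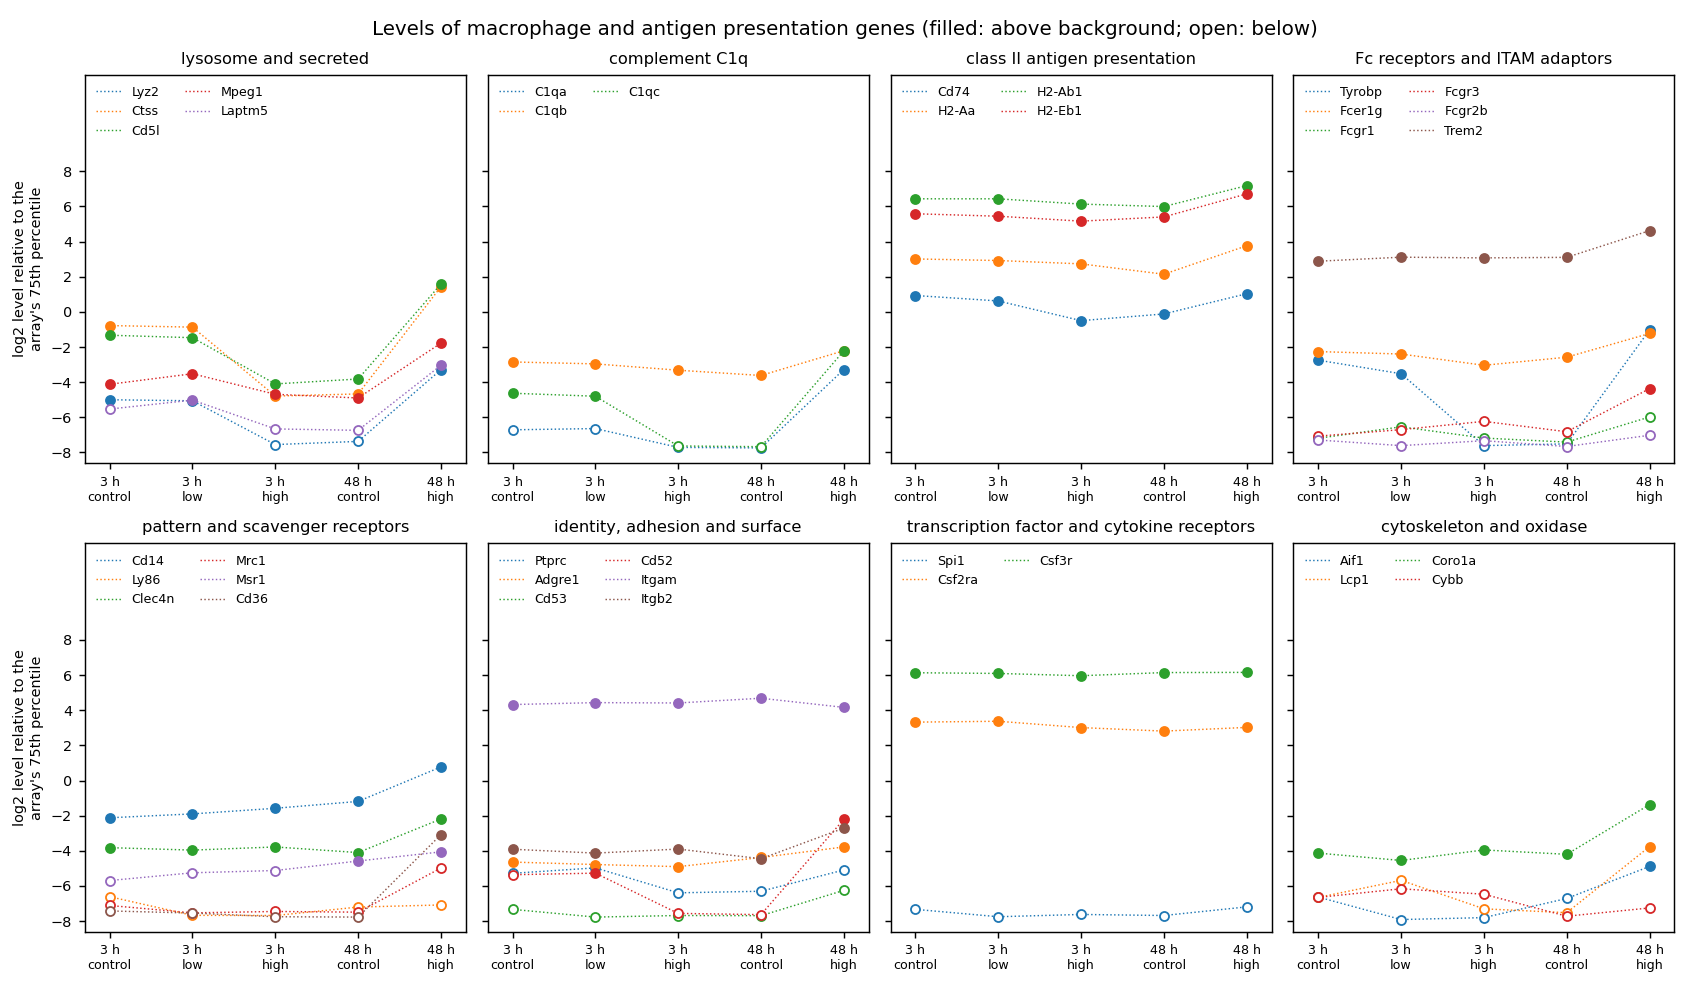
Levels of the 37 matched genes on each of the 5 arrays, in 8 panels by role, as log2 relative to the array's 75th percentile. Each point is 1 array, filled where the gene was well above background and open where it was not, and dotted lines only join the points of a gene. Ctss and Cd5l are low and Tyrobp, C1qc and Lyz2 below background on the middle arrays, 3 h high dose and 48 h control, while Itgam, Csf2ra and Csf3r stay flat.

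Per the file headers the 5 arrays shared 1 slide and 1 scan. The second of the position numbers in the headers was 3 for the first pair of outer arrays, 2 for both middle arrays and 1 for the 48 h high-dose array. The arrays with low levels of the core genes thus share a position number, and position and the shape of these levels cannot be told apart.

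Which macrophage genes differ early under the high dose is addressed by the 3 h comparison with the control. Ctss, which encodes cathepsin S, was 16.1-fold lower at the high dose, and Cd5l, which encodes a secreted macrophage protein, was 6.83-fold lower. Tyrobp was at least 6.74-fold lower and Cd74 2.69-fold lower. These were the 4 genes called lower of 21 with a value, and 0 were called higher. After normexp background correction and quantile normalization, an alternative processing, the same 4 were called, with Ctss at -2.12, Cd5l at -1.59 and Tyrobp at -1.09 on the log2 scale. Among all named genes 4.41% were called, 2.48% higher and 1.93% lower. The median difference over the 18 genes above background on both arrays was -0.30, beside -0.01 over all named genes.

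At the low dose none of these genes was called against the 3 h control. Of 24 with a value 0 were called, where 1.93% of all named genes were, 0.881% higher and 1.05% lower. The differences of Ctss, Cd5l and Cd74 were -0.10, -0.14 and -0.31, and the largest in size was that of Tyrobp at -0.78 (scanner error 0.227). The high-dose array set against the low-dose array, by contrast, gave 5 genes called lower and 0 higher of 24, where 3.37% of all named genes were called, 2.31% higher and 1.06% lower. They were Ctss at -3.92, Cd5l at -2.63, Mpeg1 at -1.17, Cd74 at -1.11 and Tyrobp, at least 3.93-fold lower. Mpeg1 was not called with the mean of its probes (-0.53), nor, after normexp and quantile normalization, were Mpeg1 (-0.48), Cd74 (-0.96) and Tyrobp (-0.70). This comparison shares its high-dose array with the comparison above.

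At 48 h the direction was the opposite. Of 29 genes with a value 23 were called higher at the high dose and 0 lower, where 23.1% of all named genes were called and 11.1% called higher. Ctss was 68.2-fold higher and Cd5l 42.3-fold higher, and Tyrobp was at least 21.3-fold higher. On the log2 scale these are 6.09, 5.40 and at least 4.42, and after normexp and quantile normalization the values were 3.97, 4.0 and 2.38. Of the 19 genes measured on both arrays 14 were called higher, where 9.92% of all named genes measured on both were, and the other 9 calls are bounds. The 6 that were not called were Msr1, Adgre1, Itgam, Csf2ra, Csf3r and Aif1. The median over the 19 genes measured on both arrays was 1.42, beside 0.05 over all named genes.

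The 2 high-dose comparisons share no array. Of 21 genes with a value at both times, 15 had a difference below 0 at 3 h and above 0 at 48 h, and 24.1% of all named genes did. Ctss, Cd5l, Cd74 and Tyrobp were called in opposite directions at the 2 times, as were 0.366% of all named genes. Another 5 genes, Trem2, Cd14, Clec4n, Itgb2 and Coro1a, were above 0 at both times.

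**Figure D2:**
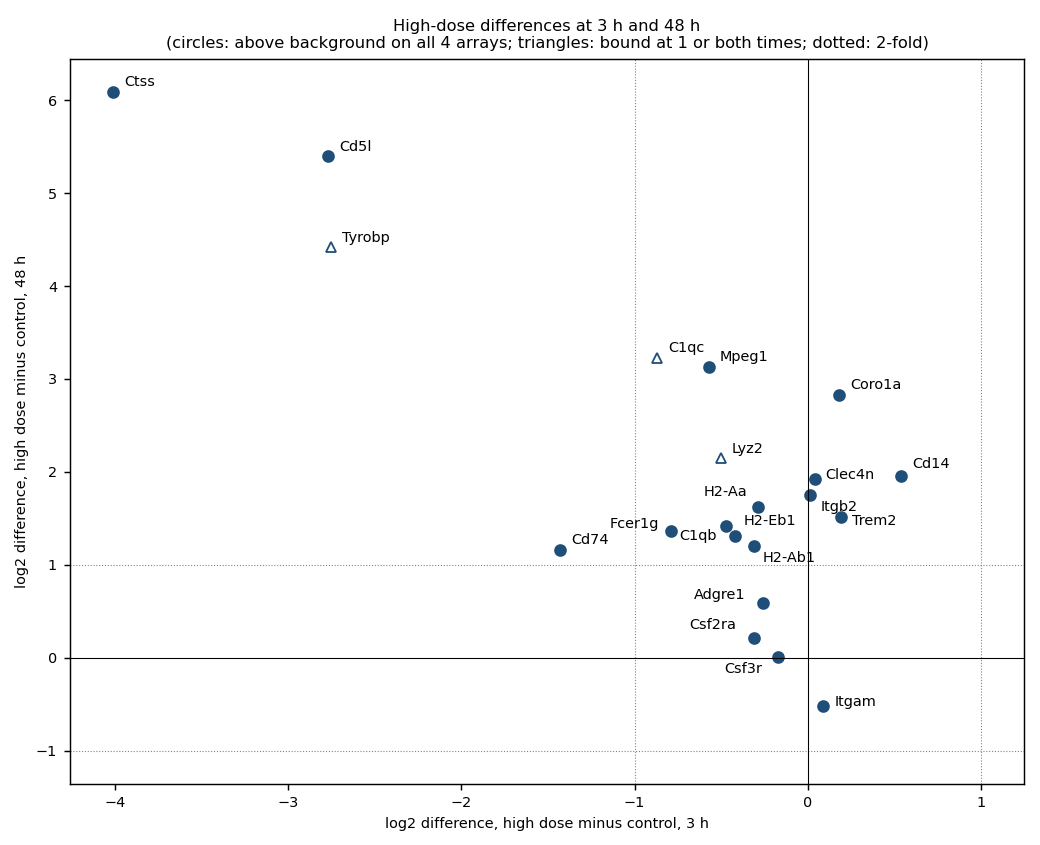
Log2 difference between high dose and control at 3 h (horizontal) and at 48 h (vertical) for the 21 genes with a value at both times, 1 point a gene. Circles were measured on all 4 arrays, triangles are bounds at 1 or both times, and dotted lines mark 2-fold. Ctss at -4.01 and 6.09 lies farthest toward the upper left, and Csf3r at -0.17 and 0.01 lies near the origin.

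The control arrays also differed from each other in these genes. In the 48 h control Ctss was 14.8-fold lower than in the 3 h control, Cd5l 5.65-fold lower and Cd74 2.08-fold lower, and Tyrobp was at least 6.51-fold lower. These 4 of 22 genes with a value were called lower and 0 higher, where 4.77% of all named genes were called, 2.97% higher and 1.8% lower. The 3 h control array also stands in both 3 h comparisons with the control, so these differences are not independent of those. Between the high-dose arrays, 25 of 29 genes were called higher at 48 h and 0 lower, where 20.5% of all named genes were called, 10.3% higher and 10.1% lower. These were the 23 genes of the 48 h comparison together with Msr1, at least 2.08-fold higher, and Adgre1, 2.16-fold higher.

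The middle arrays, 48 h control and 3 h high dose, were set against each other after their values had been seen. Of 19 genes with a value 0 were called, and the differences ran from -0.59 for H2-Aa to 0.53 for Msr1, where 5.89% of all named genes were called. Without bounds, 14 genes in place of 23 were called at 48 h, and after normexp and quantile normalization 13 were. The calls lost under the latter were those of Lyz2, C1qa, C1qb, H2-Ab1, H2-Eb1, Fcer1g, Fcgr3, Cd36, Itgb2 and Lcp1, with values from 0.47 for Fcgr3 to 0.92 for Lyz2 and, for Cd36, just under the threshold. With no filter on dim probes, 12 genes in place of 4 were lower at the high dose at 3 h. Calls over all named genes moved as well under these settings. At 48 h, 1667 higher and 1800 lower became 1363 and 1386 without bounds, and 1048 and 1226 after normexp. At 3 h, 367 higher and 286 lower became 823 and 537 with no filter.

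Among genes of the lysosome and of secretion, Ctss had the widest range of those above background on every array, 6.22. Its level was -0.78 on the 3 h control, -0.87 on the 3 h low-dose, -4.79 on the 3 h high-dose, -4.67 on the 48 h control and 1.43 on the 48 h high-dose array. The intensities behind these were 423, 321, 20.1, 25.6 and 1130. The first pair was thus high, both middle arrays low, and the last array higher than all others. Cd5l followed the same course, with levels of -1.33, -1.47, -4.10, -3.82 and 1.58 in the same order of arrays, which is kept for every list of 5 levels below. Its difference between high dose and control was -2.77 at 3 h (scanner error 0.245) and 5.40 at 48 h (scanner error 0.229).

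Lyz2, which encodes the lysozyme of macrophages and granulocytes, had levels of -5.00, -5.06, -7.55, -7.37 and -3.29. It was above background on the outer arrays only, and at 48 h was at least 4.45-fold higher at the high dose. Its intensity did not exceed 42.8 on any array. Lyz1 is a near-identical copy, so RNA of either gene may bind both probes and the level of each is uncertain. Laptm5, a lysosomal membrane protein of blood cells, had levels of -5.53, -5.02, -6.66, -6.74 and -3.04 and was above background on the low-dose array and the 48 h high-dose array only. At 48 h it was at least 5.30-fold higher at the high dose, and its second probe had its highest level, -3.39, on the same array. Mpeg1, which encodes the pore-forming protein perforin-2, had levels of -4.12, -3.52, -4.69, -4.90 and -1.78. It was 8.74-fold higher at the high dose at 48 h, and its other probe was below background on all 5 arrays.

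Complement C1q is built from the products of C1qa, C1qb and C1qc, and the 3 probes did not behave alike. C1qc had levels of -4.63, -4.80, -7.63, -7.67 and -2.22 and was above background on the outer arrays. C1qa had levels of -6.71, -6.64, -7.71, -7.74 and -3.28 and was above background on the 48 h high-dose array only. Both were higher at the high dose at 48 h, at least 9.40-fold for C1qc and at least 4.49-fold for C1qa. C1qb was above background everywhere, with levels of -2.85, -2.96, -3.32, -3.62 and -2.21. It spanned 1.42 over the 5 arrays, with its lowest levels on the middle arrays, and was 2.67-fold higher at the high dose at 48 h.

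Stretches of 250 bases upstream of 6 gene starts are shown, those of 4 genes that were higher on the outer arrays, of Csf3r, which did not vary, and of a class II gene. They come from RefSeq, build GRCm38.p6, whose promoter table held 32 promoters of 27 of these genes. Each is written 5′ to 3′ on the strand of the gene. In the first 5, capitals mark the purine-rich core of PU.1 sites, GAGGAA or TTCCTC on the other strand. In H2-Eb1 they mark the Y box core of class II promoters, CCAAT or ATTGG on the other strand.
Ctss, chr3:95526536-95526785, plus strand: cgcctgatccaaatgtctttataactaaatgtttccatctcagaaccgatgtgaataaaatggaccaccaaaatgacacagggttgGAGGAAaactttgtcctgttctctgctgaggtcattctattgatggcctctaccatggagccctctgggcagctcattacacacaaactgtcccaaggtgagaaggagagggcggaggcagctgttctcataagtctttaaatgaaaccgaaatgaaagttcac
Cd5l, chr3:87357631-87357880, plus strand: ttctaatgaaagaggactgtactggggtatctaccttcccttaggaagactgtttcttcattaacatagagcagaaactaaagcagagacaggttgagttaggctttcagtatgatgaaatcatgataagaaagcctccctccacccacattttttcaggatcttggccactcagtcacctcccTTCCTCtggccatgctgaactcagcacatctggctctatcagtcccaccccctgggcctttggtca
C1qc, chr4:136892915-136893164, minus strand: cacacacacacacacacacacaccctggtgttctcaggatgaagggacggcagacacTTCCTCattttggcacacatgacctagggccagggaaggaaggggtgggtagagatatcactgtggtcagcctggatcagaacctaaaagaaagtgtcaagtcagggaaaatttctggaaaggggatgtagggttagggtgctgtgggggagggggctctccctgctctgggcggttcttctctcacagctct
Lyz2, chr10:117282273-117282522, minus strand: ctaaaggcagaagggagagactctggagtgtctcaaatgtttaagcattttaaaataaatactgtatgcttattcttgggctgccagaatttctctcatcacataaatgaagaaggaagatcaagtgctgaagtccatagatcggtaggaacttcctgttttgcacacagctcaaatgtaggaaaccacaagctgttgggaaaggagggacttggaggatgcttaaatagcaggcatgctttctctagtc
Csf3r, chr4:126024409-126024658, plus strand: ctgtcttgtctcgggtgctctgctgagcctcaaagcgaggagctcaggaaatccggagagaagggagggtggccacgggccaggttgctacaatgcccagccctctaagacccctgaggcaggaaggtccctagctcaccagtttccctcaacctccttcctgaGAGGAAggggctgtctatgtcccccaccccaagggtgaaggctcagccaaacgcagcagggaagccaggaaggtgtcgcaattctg
H2-Eb1, chr17:34305617-34305866, plus strand: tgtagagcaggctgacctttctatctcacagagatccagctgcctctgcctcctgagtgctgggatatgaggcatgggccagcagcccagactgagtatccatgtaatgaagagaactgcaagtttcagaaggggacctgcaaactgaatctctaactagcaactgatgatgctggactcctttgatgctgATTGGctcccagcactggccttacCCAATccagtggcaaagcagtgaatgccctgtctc

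The PU.1 core lay 164 bases before the start of Ctss, 66 before that of Cd5l, 193 before that of C1qc and 86 before that of Csf3r, counted from the first base of the match. These letters were not in the Lyz2 window. A match in either strand was present in 18 of the 32 promoters (56.2%) and in 23.3% of all 32851 promoters in the table. The Y box core stood in 11 of the 32 (34.4%) and in 33.8% of all, and in H2-Eb1 it lay 35 and 59 bases before the start. Neither motif contains the other, and a match is a description of the letters only.

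The class II genes were above background on every array and varied less. H2-Ab1, which encodes the beta chain of the A molecule, had levels of 6.43, 6.43, 6.13, 5.99 and 7.18, and its second probe was also highest, at 7.13, on the 48 h high-dose array. H2-Aa, its alpha chain, had levels of 3.01, 2.92, 2.73, 2.14 and 3.76, and H2-Eb1, the beta chain of the E molecule, 5.58, 5.44, 5.16, 5.40 and 6.71. In all 3 the 48 h high-dose array was highest and the 3 h high-dose or 48 h control array lowest. The high dose was above the control at 48 h by 1.20 for H2-Ab1, 1.62 for H2-Aa and 1.31 for H2-Eb1, each with a scanner error of 0.204. At 3 h the differences ran from -0.42 to -0.29 in these genes, and 0 of the 3 were called.

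Cd74 had levels of 0.93, 0.62, -0.50, -0.12 and 1.03, and of these 4 genes it was the one called at both times. Its difference between high dose and control was -1.43 at 3 h and 1.16 at 48 h. Among 15 other genes of the class II pathway, the count at 48 h was 1 higher and 1 lower of 12 with a value, with a median of -0.04 where measured. The higher gene was H2-DMb1, a chain of the molecule that loads peptides, with levels of 3.52, 3.50, 2.70, 2.75 and 3.97. The lower was H2-Eb2 at -1.12. Ciita, the coactivator of class II genes, was dim throughout at -4.52, -4.14, -5.24, -4.36 and -4.91 and not well above background on either high-dose array.

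Of the genes for Fc receptors and their signalling partners, Tyrobp, which encodes the adaptor DAP12, had the largest differences called. Its levels were -2.75, -3.52, -7.61, -7.51 and -1.03, from intensities of 108, 51.2, 2.85, 3.57 and 205. It was well above background on the outer arrays only, and the 48 h high-dose array lay at least 22.1-fold above the 3 h high-dose array. Fcer1g, the shared gamma chain of Fc receptors, had levels of -2.26, -2.40, -3.04, -2.58 and -1.23, and its difference between high dose and control was -0.79 at 3 h and 1.36 at 48 h. Both adaptors were highest on the 48 h high-dose array and lower on the middle arrays than on the others, and Fcer1g spanned 1.82 over the 5 arrays.

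Trem2, a lipid receptor that signals through DAP12, did not show the dip. Its levels were 2.88, 3.11, 3.07, 3.1 and 4.62, and it was 2.85-fold higher at the high dose at 48 h. It was above background on both middle arrays, where its adaptor was not. Fcgr3, a low-affinity receptor for IgG, was above background on the 48 h high-dose array only and there at least 2.11-fold higher than in the control. Fcgr1, the high-affinity receptor, and Fcgr2b, the inhibitory one, were not well above background on any array.

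Receptors for microbial patterns and scavenged lipids were led at 48 h by Cd36, Cd14 and Clec4n. Cd14, the co-receptor for bacterial lipopolysaccharide, had levels of -2.12, -1.90, -1.58, -1.19 and 0.77, without a dip on the middle arrays. The high dose was above the control by 0.54 at 3 h (scanner error 0.209) and by 1.96 at 48 h (scanner error 0.205). Clec4n, which encodes the fungal receptor dectin-2, had levels of -3.82, -3.96, -3.78, -4.10 and -2.19, flat on the first 4 arrays. Cd36, a receptor for fatty acids and oxidised lipoproteins, had levels of -7.42, -7.54, -7.75, -7.77 and -3.08 and was above background on the 48 h high-dose array only, at least 5.16-fold above the control.

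Msr1, the class A scavenger receptor, was above background on both 48 h arrays and no other, with levels of -5.69, -5.25, -5.12, -4.58 and -4.06. Its 48 h difference of 0.52 (scanner error 0.338) was not called. Its second probe was above background on the 48 h high-dose array only, at -4.68, and lay at -7.77 on the 48 h control array, so the probes disagree on that difference. Mrc1, the mannose receptor, and Ly86, a partner of a Toll-like receptor relative, were not well above background on any array.

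Among surface genes, Cd52, which encodes a small glycoprotein of blood cells, had levels of -5.36, -5.27, -7.56, -7.63 and -2.21. It was above background on the low-dose array and the 48 h high-dose array only, and was at least 9.41-fold higher at the high dose at 48 h. Itgb2, the beta 2 integrin chain, had levels of -3.91, -4.13, -3.90, -4.45 and -2.71, with a 3.35-fold higher level at the high dose at 48 h. Its partner Itgam had levels of 4.32, 4.43, 4.41, 4.68 and 4.16 and was the only gene of those with a value that lay below the control at 48 h, at -0.52. On these probes the 2 chains of this integrin thus did not vary together. The other Itgam probes spanned -3.77 to -3.26 and -4.58 to -3.95 over the arrays, also less than 2-fold. They lay far below the brightest probe, so the probes disagree on the level of Itgam and what the brightest reports is uncertain.

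Ptprc, which encodes the pan-leukocyte protein CD45, was above background on the 3 h low-dose array only, with levels of -5.28, -4.97, -6.39, -6.30 and -5.09. Adgre1, which encodes the macrophage marker F4/80, had levels of -4.64, -4.78, -4.90, -4.38 and -3.78 on its brighter probe, with no dip. Its second probe read -5.78, -5.63, -7.58, -7.66 and -3.48, low on the middle arrays, but it was above background on the 48 h high-dose array alone. Cd53, a tetraspanin of blood cells, was not well above background on any array.

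The genes for a transcription factor and for cytokine receptors differed from Ctss, Cd5l and Tyrobp. Spi1, which encodes PU.1, was not well above background on any array, with intensities from 2.74 to 4.51. Csf3r, the receptor for the granulocyte growth factor G-CSF, had levels of 6.13, 6.09, 5.96, 6.14 and 6.15. Csf2ra, a chain of the receptor for GM-CSF, had levels of 3.32, 3.37, 3.01, 2.81 and 3.02. Neither was called in any of the 6 comparisons, and their largest differences in size were 0.18 for Csf3r and -0.50 for Csf2ra.

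Of the cytoskeleton genes 1 was above background on every array, without a dip. Coro1a, which encodes the actin-binding protein coronin 1A of blood cells, had levels of -4.13, -4.55, -3.95, -4.20 and -1.37 and was 7.11-fold higher at the high dose at 48 h. Lcp1, which encodes the actin-bundling protein L-plastin, was above background on the 48 h high-dose array only, at -3.76, and at least 3.22-fold higher than in the control. Aif1, which encodes the macrophage protein IBA1, was also above background there only, at -4.89, but its bound of 1.48-fold was not called. Cybb, a subunit of the phagocyte oxidase, was not well above background on any array.

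Beyond the list, 17 named genes were above background on the outer arrays only. Every gap of these genes is a lower limit, so their order is that of the limits. It was at least 2.65 for the chemokine gene Ccl6 and at least 2.34 for Lyz1. Ear2, which encodes a ribonuclease of eosinophils and macrophages, followed at 1.68, Ms4a7, a membrane protein gene of macrophages, at 1.29, the chemokine gene Ccl8 at 1.14 and Wfdc17, a gene for a small secreted protein, at 1.01. Ccl6 had levels of -2.72, -2.72, -5.37, -7.69 and -0.24, with bounds on the high-dose difference of -2.65 at 3 h and 5.21 at 48 h. Lilrb4a, Arg1, F830016B08Rik, Fam163a, 2700099C18Rik, Dnajb3, Cd300c2, Retnla, Rac2, Triml2 and Arhgap25 had lower limits from 0.27 to 0.80. Of the 17 genes 4 stand in another list used here, and 14 further probes with this pattern have no gene name.

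**Figure D3:**
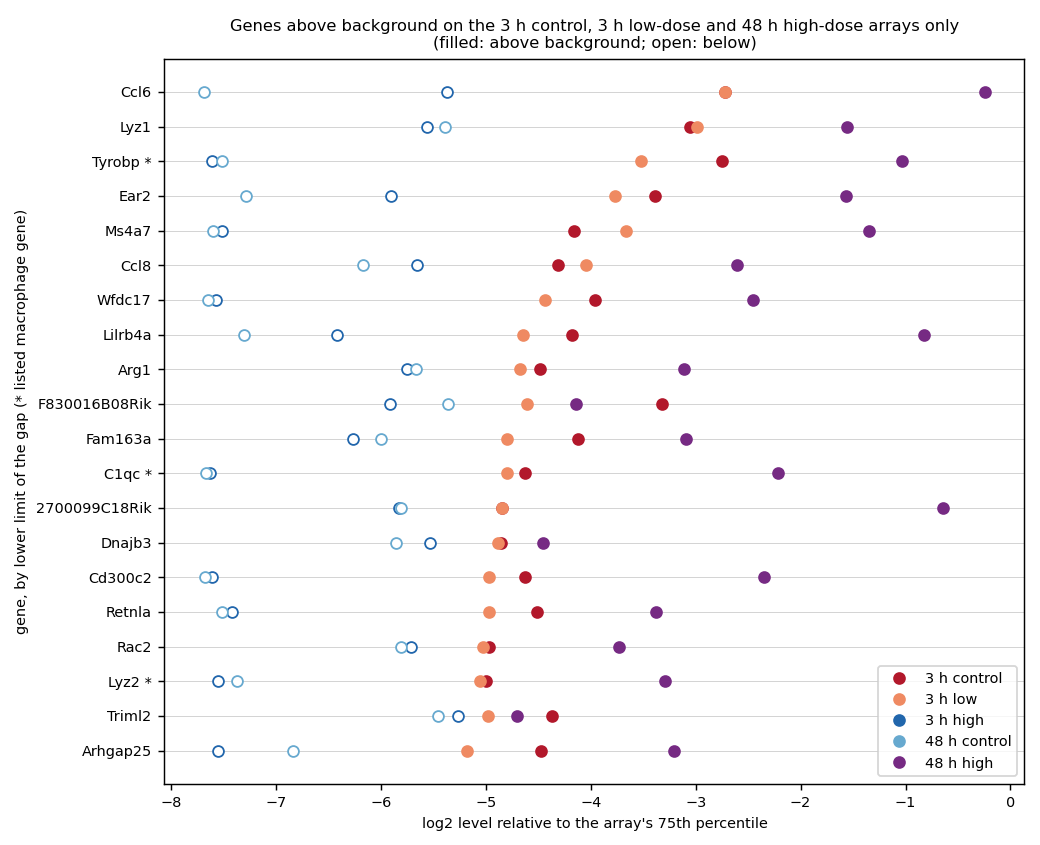
Levels of the 20 named genes above background on the outer arrays only (the 48 h high dose, and the control and low dose at 3 h), in log2 relative to the array's 75th percentile, 1 row a gene and 1 point an array. Filled points were well above background and open points were not, and an asterisk marks a gene of the list. Rows are in the order of the lower limit of the gap, from 2.65 for Ccl6 to 0.27 for Arhgap25, and open points have no order among themselves.

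Other macrophage genes included many below background. Of 46 on the array, 22 were above background on no array, among them Cx3cr1 and Cd163. At 48 h of the high dose 8 were higher and 3 lower of 23 with a value, with a median of 0.31 where measured. Csf1r, which encodes the receptor for CSF1, was above background on all arrays with levels of 2.55, 2.52, 2.65, 2.89 and 5.30 and no dip at 3 h. Lilrb4a was at least 24.8-fold higher, Ms4a7 at least 17.2-fold and Clec4d, a C-type lectin gene, at least 8.09-fold. Clec4a2 was at least 4.84-fold lower, and Mertk, a receptor for the uptake of dying cells, at least 3.28-fold lower. At 3 h, 0 were higher and 4 lower of 18 with a value, namely Pilra at -1.75, Mertk at -1.16, Ms4a7 and Lilrb4a. Pilra was also called lower than the 3 h control at the low dose, at -1.88, and in the 48 h control, at -1.83.

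Of the genes of signalling in blood cells, 9 of 19 with a value were higher at 48 h and 2 lower, with a median of 0.71 where measured. Ncf4, an oxidase component, was higher by 2.16, and Vav1, a Rac activator, at least 4.13-fold, whereas Blnk, an adaptor best known from B cells, was at -3.62. At 3 h the count was 1 higher and 1 lower of 15.

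Lysosome genes that most cell types express did not vary with the macrophage genes. All 15 were above background on all arrays, and at 48 h 0 were higher and 1, Lamp2, was lower, with a median of -0.28. Of the growth factors and attractants of macrophages, 1 was higher and 4 lower of 9 at 48 h. Csf1 had levels of 2.52, 3.29, 2.84, 2.65 and 2.29 and was not called at either time of the high dose. Il34, another ligand of the CSF1 receptor, was 5.10-fold lower at 48 h, and Ccl8 at least 7.15-fold higher. Of the interferon gamma response genes, which include inducers and relatives of the antigen presentation machinery, 0 were higher and 5 lower of 13 at 3 h, with a median of -0.82. Among them were Iigp1 at -1.95, Nlrc5 at -1.36, Tap1 at -1.26 and Psmb9 at -1.21, and at 48 h the count was 1 higher and 1 lower of 13.

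Markers of other cells were set beside these results, and their part in them was not tested. All 12 mesenchymal and neural crest markers were above background on every array, and at 48 h 0 were higher and 6 lower, with Ngfr at -6.45, Col3a1 at -3.18 and Pdgfra at -2.89. The log2 of their summed level was 8.79, 8.99, 8.86, 8.91 and 8.58. The dendritic cell markers gave 3 higher and 1 lower of 6 at 48 h, with Itgax at least 5.18-fold higher. Of the 10 on the array 4 were above background on every array, Siglech, Batf3, Zbtb46 and Ly75, and 4 on none, the defining Flt3, Xcr1 and Clec9a among them. The osteoclast markers gave 2 higher, Acp5 at 2.09 and Atp6v0d2, and 0 lower of 6. The T and NK cell markers gave 1 higher and 2 lower of 9, and of the 17 on the array 7 were above background on every array, among them Cd3e and Lck, and 6 on none, among them Cd3d and Cd3g. The B cell markers gave 1 higher and 1 lower of 6. Neutrophil markers gave 1 higher and 1 lower of 5, mast cell markers 0 higher and 1 lower of 2, endothelial markers 1 higher and 1 lower of 5, and red cell and platelet markers 0 higher and 1 lower of 3. The summed level of the listed macrophage and antigen presentation genes, in the same log2 units, was 7.99, 7.96, 7.74, 7.81 and 8.64. Such a sum adds levels across genes and is set mostly by the brightest probes. On the 48 h high-dose array these were H2-Ab1 (7.18), H2-Eb1 (6.71) and Csf3r (6.15), beside 1.43 for Ctss and -1.03 for Tyrobp. Neither sum measures the share of a cell type, and the sums are not to be set against each other.

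**Figure D4:**
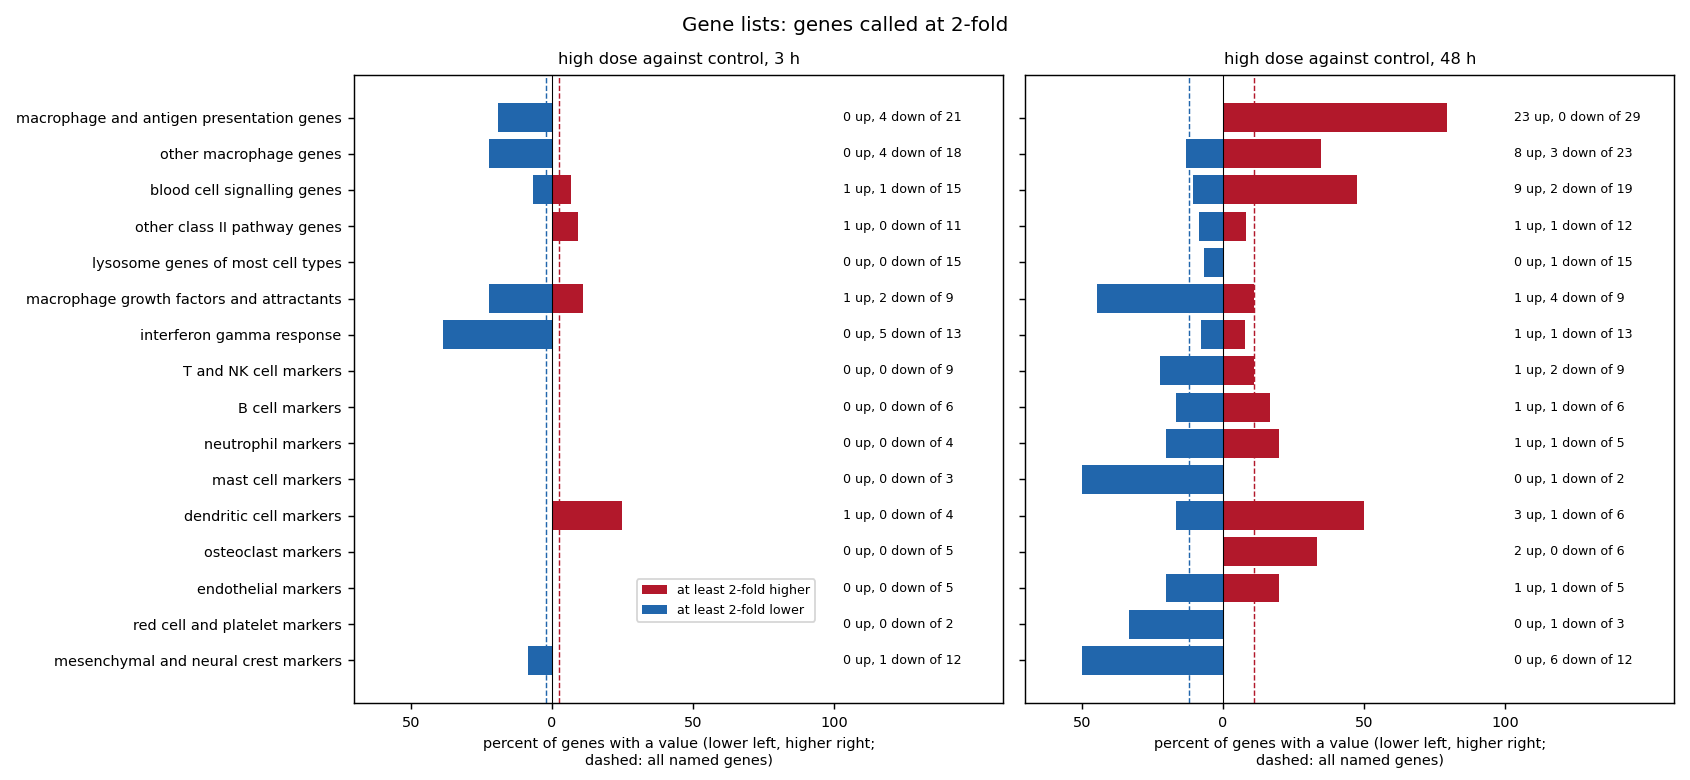
Share of genes called at 2-fold between high dose and control, at 3 h (left) and 48 h (right), as a percent of the genes with a value in each of 16 lists, 1 pair of bars a list. Bars to the right are higher and bars to the left lower at the high dose, the counts stand beside them, and dashed lines mark all named genes. The macrophage and antigen presentation genes show 4 of 21 lower at 3 h and 23 of 29 higher at 48 h.

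The label of the list holds in part. Spi1, Cd53, Fcgr1, Mrc1 and Cybb, which mark macrophages or related blood cells, were above background on no array, and Ptprc on the 3 h low-dose array only. Csf3r, Csf2ra, Itgam, Trem2 and the class II genes were well above background on all arrays, including both middle arrays, on which Tyrobp, Lyz2, C1qa and C1qc were not above background. Levels near the background carried a large scanner error, 1.46 for the 48 h differences of C1qa, Cd36 and Cd52.

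The only fit with a residual degree of freedom was limma on 4 arrays, the controls and high doses, with a time term and a dose term. Of 22 listed genes fitted, 0 passed an adjusted p of 0.05 (limma, Benjamini-Hochberg), and 0 had an unadjusted p under it. Of all 14601 genes fitted 0.0% passed, and 3.43% had an unadjusted p under 0.05. Cd14 had an effect of 1.25 (SE 0.468, limma adjusted p = 0.884). Ctss had an effect of 1.04 (SE 2.56, limma adjusted p = 0.94), since opposite differences at 3 h and 48 h count as error in this model.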

How the data were processed

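The members, the other lists and the tests were chosen with earlier results of these data known. Per the file headers, the deposited files hold 1-colour spot intensities from which the software had taken background and spatial trend array by array, and detection flags for each spot. The submitters' processing notes name Agilent Feature Extraction 10.7.3.1. The value table the authors deposited matched the log2 mean of these intensities within 0.001 for 100.0% of probes. Its columns, with medians of 38.3, 32.5, 31.9, 37.7 and 23.9, are on a linear scale with no centring and no scaling across arrays.

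Outlier spots (111 to 146 of 59305 outside the controls per array) were left out, and 0 spots were saturated. Log2 intensities were averaged per probe and lowered by the array's 75th percentile. A probe counted as above background if 0.5 or more of its spots carried that flag. Probe accessions, less their versions, were looked up in the GRCm38.p6 RefSeq table. It served for names alone, as the headers give an earlier build. This named 26408 of 55681 probes, and 29273 had no name. Of the genes, 5334 had several probes, and the brightest on average was used.

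Any member could be named. Genes of other lists were named mostly by size among those called, up to 6 a list, or as defining markers below background. At 48 h Mertk was named although Vsig4 and Fcgr4 had larger bounds. Csf1 and Ciita were added after their values were seen. Cd3e, Lck, Siglech and Zbtb46 were named as markers above background on every array, although called in no comparison. Genes outside the lists were those with the widest gap, of which 17 exist and all are named. With 1 array per group no difference between 2 arrays has a p-value, and the number of arrays limits the precision. The limma fit (version 3.58.1, R 4.3.3) used the intensity trend, 1 residual degree of freedom and genes above background in 2 or more of its 4 arrays. Both procedures were run on simulated data. Those for limma held the same dose effect at both times, so that run does not bear on genes with opposite differences. Alternatives covered background correction, scaling, probe choice, the value table, detection, fold and filter. The mean spot intensity is not a column used here, so normexp (offset 50) ran on the median spot and background intensities, which replaces the planned column. Single values of some genes of the other lists are not reported here.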

Additional observations from a re-analysis of the deposited data

Results flagged for a closer look

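Some genes were at least 2-fold lower at the high dose than in the control at 3 h and at least 2-fold higher at 48 h. They were 53 of the 14499 named genes with a value at both times. Given here are only those of the list and those above background on the outer arrays only. The difference between the 2 times was not tested, since each group has 1 array. On the log2 scale, the 48 h difference minus the 3 h difference was 10.1 for Ctss, 8.18 for Cd5l and 2.58 for Cd74, all measured on 4 arrays. For the other genes given, both differences are bounds, so the value is a lower limit. It was 7.17 for Tyrobp. Among genes outside the list it was 7.86 for Ccl6, 6.28 for Lyz1, 5.99 for Ear2, 5.95 for Lilrb4a, 5.44 for Ms4a7 and 4.53 for Wfdc17. It was 4.03 for Ccl8, 3.73 for Fam163a, 3.40 for F830016B08Rik, 3.35 for Arg1 and 3.26 for Arhgap25.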

How the results depend on the processing

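No paired analysis was possible because each group has 1 array, and for the same reason no replicate could be left out. Of the listed genes called at 3 h between high dose and control, 4 became 12 with the looser detection flag and 12 with no filter on dim probes. Over all named genes, 367 higher and 286 lower became 814 and 530 with that flag, and 823 and 537 with no filter. Between low dose and control 0 became 2 and 2 under these settings, and between high and low dose 5 became 12 and 12, 2 after normexp and quantile normalization and 3 at a 3-fold threshold. For low dose against control, 130 higher and 155 lower of all named genes became 476 and 330, and 480 and 336. For high against low dose, 345 and 159 became 706 and 505, and 716 and 514. They became 102 and 52 after normexp, and 145 and 39 at 3-fold. At 48 h, 23 became 13 after normexp and quantile normalization and 14 without bounds. Over all named genes, 1667 higher and 1800 lower became 1048 and 1226 after normexp, and 1363 and 1386 without bounds. The moves of the listed genes are therefore not shown to be particular to the list. Such counts over all named genes are not reported here for the next comparisons. Between the controls 4 became 12 and 12 under the looser flag and no filter, 1 of them higher. Between the high-dose arrays 25 became 13 after normexp and quantile normalization, 15 at 3-fold and 15 without bounds. The alternatives with no filter or without bounds test more or fewer genes by construction; for normexp the cause was not tested. The count of genes above background on the same 3 arrays was 2 to 3, and that of genes with those 3 highest 18 to 21. The limma fit gave 0 listed genes under every alternative run. Of 427 values of 61 called differences under the alternatives, 335 moved by no more than the scanner error, 92 moved further and 0 changed sign. Many of the 335 were fixed in advance and do not show robustness. Looser detection and no filter leave a difference measured on both arrays unchanged, and the value table holds the same intensities. Averaging probes leaves a gene with 1 probe unchanged. Median centring moved the median of all genes from -0.01 to -0.14 in the 3 h high-dose comparison, and the share of higher among all genes called from 56.2% to 41.9%; between the controls the share went from 62.3% to 46.4%.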
